A study of Oryctolagus cuniculus with 6 samples.

Results

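The regions described here are stretches of rabbit chromosomes 1 to 21 that had an ATAC-seq peak in 3 of 3 naive corneas and in exactly 1 of 3 alkali-burned corneas. Overlapping peaks of the 6 libraries (by 1 bp or more) were joined, which gave 26220 regions in all and 16249 on chromosomes 1 to 21. The rule took 318 of these, or 1.96% of the 16249 regions and 12.3% of the 2594 regions with a peak in all 3 naive libraries. They are called single-burn regions below. The members were thus chosen by the measured peak calls of all 6 libraries, so differences between naive and burned peaks at these regions are described and not tested. Where a list has no peak, the signal was below its calling limit, and closed chromatin is not shown.

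The libraries came from female rabbits of a strain and age not given in the labels. The 3 burned corneas had been covered for 30 s with an 8 mm filter disc soaked in sodium hydroxide, and all corneas were collected on day 14. The labels give the strength as 0.5 N in one place and as 1 N in another. The 3 naive corneas were untreated, and the labels name the unexposed fellow eye of a burned animal as the naive control, without tying library numbers to animals. Nothing in the labels sets apart the cell layers of the cornea, so each library is a mixture of whole-tissue nuclei. In such bulk tissue, fewer nuclei with an open region and less accessibility in each nucleus cannot be told apart.

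The cornea is a clear layer of epithelium over a collagen stroma that holds keratocytes, with an endothelium on its inner face. After an alkali burn, keratocytes can turn into myofibroblasts, blood-borne cells enter, and an opaque scar can form. ATAC-seq marks open chromatin, because the transposase inserts adaptors where DNA is not covered by nucleosomes, mostly at promoters and enhancers. A peak's summit is its position of highest tag density, and its width tells over how much sequence the signal exceeded the background. No gene annotation or sequence of the authors' build, OryCun2.0, was used, so the regions are described by position and by peak shape. For the same reason the labelled tissue could not be checked against its marker genes.

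Almost all single-burn regions were regions of 1 library. Burned library 3 held the peak at 315 of the 318 regions (99.1%, 95% Wilson interval 97.3 to 99.7), burned library 2 at 2 and burned library 1 at 1. The intervals here and below cover counting error only. Burned library 3 also had the longest burned list, with 1094 peaks on chromosomes 1 to 21 against 377 and 303 in burned libraries 1 and 2. It had a peak at 18.4% of the regions with all 3 naive peaks, against 6.05% in burned library 1 and 5.63% in burned library 2. Over all 16249 chromosomal regions these shares were 6.63%, 2.23% and 1.83%. Without burned library 3, the rule with the other 2 burned libraries found 29 regions, and 3 of them were among the 318. The burned values below are therefore those of 1 cornea, with no replicate.

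The depth of burned library 3, as far as its list shows it, lay between those of the other 2 burned libraries. Its genome background, which is the tag number that chance alone would give at any position, was 1.92 tags, against 1.83 tags in burned library 1 and 2.11 tags in burned library 2. In naive libraries 1, 2 and 3 it was 2.77, 1.79 and 1.8 tags. Its calling limit was lower, with a lowest -log10 p of 4.30 in the list against 5.24 and 5.2 in burned libraries 1 and 2. Raising all lists to the limit of 5.24 left 317 single-burn regions, all of them among the 318. Summit heights of burned library 3 at its 315 regions were rescaled to the background of burned library 1, which gave a median of 14.3 tags. In this arithmetic, 305 of the 315 (96.8%) reached the lowest -log10 p of the burned library 1 list, and 313 (99.4%) reached that of burned library 2 with a median of 16.5 tags. The heights were those of called peaks and so were selected upward. The rule also chose these regions for a peak in burned library 3 and none in the other 2. The arithmetic therefore cannot show what part depth or calling limit had, which was not tested. With every list shortened to its 2319 peaks of highest -log10 p, 74 single-burn regions were found, 73 of them among the 318, and burned library 3 held the peak at 73 of the 74 (98.6%). No burned library 1 or 2 peak lay within 1000 bp of any of the 315 regions, and the nearest ones lay 1867 and 1949 bp away. The rule bars overlap with such peaks. In these short lists the nearest peak lay a median of 2.92 and 4.77 Mb away, so the lack of close ones tells little.

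The single-burn regions stood high in the naive lists, which the rule's demand for a peak in all 3 of them favours. Fold, the authors' ratio of summit tags to local background, had a median over regions of 5.76, 8.81 and 7.37 in naive libraries 1, 2 and 3. Within the chromosomal peaks of those lists, these folds stood at a median percentile of 84.9, 94.0 and 88.1. Regions with all 3 naive peaks and no burned peak also had medians above those of the lists. Theirs were 4.60, 7.36 and 5.78 in naive libraries 1, 2 and 3, against 4.48, 5.32 and 5.34 for the chromosomal lists. In burned library 3 the peaks at these regions had a median fold of 4.76, at percentile 46.2 of its chromosomal list. Of the 315, 1.27% were in its top 10%. These peaks made up 28.8% of that list themselves, so a middle percentile is in part fixed. The mean naive fold of the 318 regions ran from 3.65 to 10.4 with a median of 7.31. Its median was 5.95 at the 2113 regions with peaks in 3 naive and no burned libraries, called naive-only below, 6.00 at the 28 regions with 2 burned peaks and 6.73 at the 135 regions with peaks in all 6 libraries.

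The share of naive regions that belonged to the group was larger at higher naive signal. By deciles of the mean naive fold, 4.23% of the lowest decile (11 of 260 regions) and 37.3% of the highest decile (97 of 260) were single-burn regions, with Wilson intervals of 2.38 to 7.42 and 31.7 to 43.3. By deciles of the mean naive peak width, the shares were 4.23% in the lowest and 42.7% in the highest decile (111 of 260, interval 36.8 to 48.8). By deciles of summit height they were 3.46% and 52.7% (137 of 260, interval 46.6 to 58.7). Regions with 2 or 3 burned peaks followed another course. They made up 11.2% of the lowest and 18.1% of the highest decile by fold, but 18.8% of the narrowest and 7.69% of the widest decile. The deciles between were lower, at 3.09% to 5.02% in fold deciles 2 to 9. By width the share fell to 1.16% in decile 6, below that of the widest. By summit height it was 7.69% in the lowest and 16.2% in the highest decile.

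**Figure D1:**
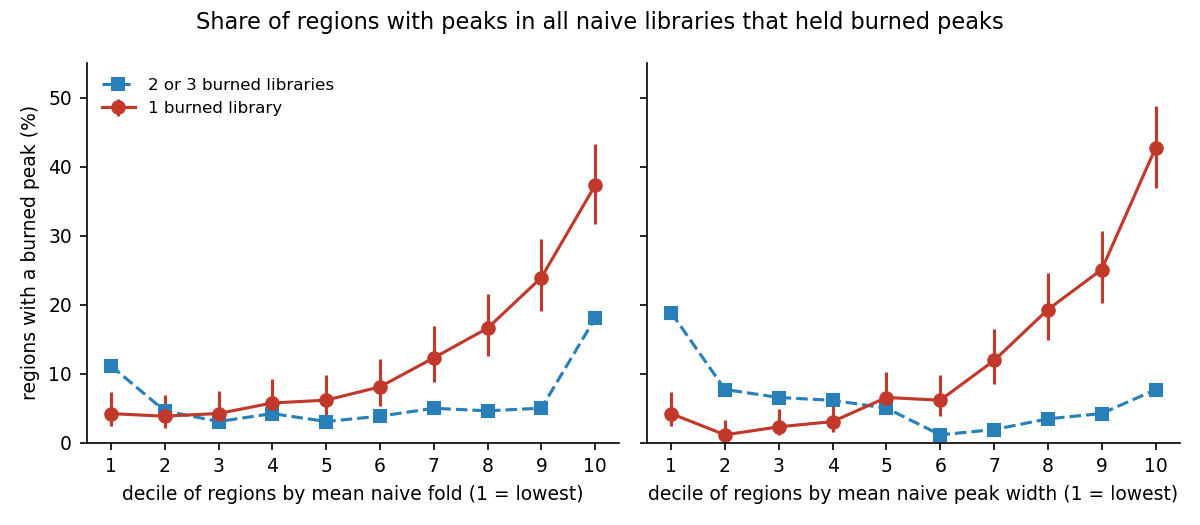
Share of the 2594 regions with peaks in all 3 naive libraries that had a peak in exactly 1 burned library (red, with 95% Wilson intervals) or in 2 or 3 burned libraries (blue), by deciles of mean naive fold (left) and of mean naive peak width (right). The red share climbs to 37.3% and 42.7% in the highest deciles, whereas the blue share is highest, 18.8%, among the narrowest regions.

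Naive peaks were wider at single-burn regions than at naive-only regions of equal mean naive fold, in most but not all pairs. Each region was paired with the naive-only region nearest in mean naive fold, which gave 318 pairs with medians of 7.31 in both sets. Within single naive libraries the fold was not equal. Its medians in naive libraries 1, 2 and 3 were 5.76, 8.81 and 7.37 against 5.42, 9.01 and 7.32 at the partners. Naive peaks at single-burn regions had a median width of 444.5, 642 and 476.5 bp in naive libraries 1, 2 and 3. At the paired naive-only regions the widths were 347.5, 551.5 and 389.5 bp. The difference was 97, 90.5 and 87 bp (91.5 ± 5.07 bp, mean ± SD, n = 3 naive libraries), so it had 1 direction in every naive library. This SD is over libraries read at the same 318 pairs, and it does not cover the choice of regions. The single-burn region had the wider peak in 226, 199 and 229 of the 318 pairs, and in all 3 naive libraries at once in 145 pairs (45.6%). The widths are those of the naive peaks alone, since a burned peak widened the merged region at 32 of the 318 regions. Paired by summit height in place of fold, a choice made after the data were seen, the difference was 53.5 bp. It was -37.7 bp, the other way, for the 29 regions found without burned library 3. Only 3 of these 29 were among the 318, and the naive-only pool of 2428 regions then took in the 315 regions of burned library 3. That value therefore describes mostly other regions and not a turn at the 318. The difference was -39.2 bp for the 26 regions found when peaks of high local background (1.5 times that of the genome, or more) were dropped. Only 14 of these 26 were among the 318, and 16 had their peak in burned library 3, so this setting describes in part other regions. With lists of equal length it was 54.3 bp, and with peaks that covered at least 50% of the region 36.3 bp.

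**Figure D2:**
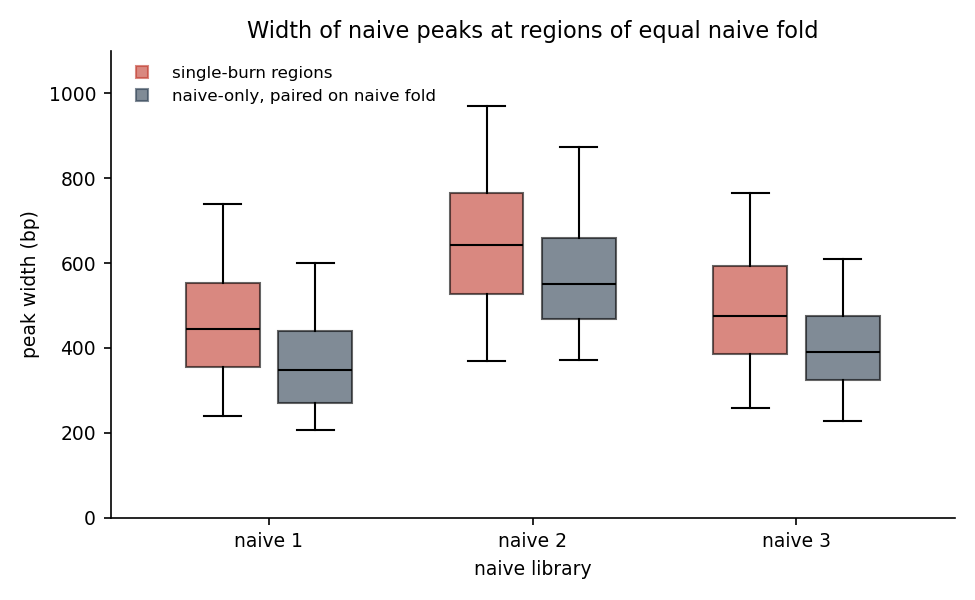
Width of the naive peaks (bp) at the 318 single-burn regions (red) and at 318 naive-only regions paired on naive fold (grey), by naive library. Lines are medians, boxes quartiles and whiskers the 5th and 95th percentiles; the red median is 87 to 97 bp above the grey one in each library.

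The highest shares were found where fold and width were both high. Among regions with 0 or 1 burned peak in the highest of 5 equal bins of fold, 53.3% of those wider than 488 bp were single-burn regions (122 of 229, Wilson interval 46.8 to 59.6), against 16.1% of the narrower ones (37 of 230, 11.9 to 21.4). In the next bin the shares were 26.7% (66 of 247) and 3.64% (9 of 247). In the middle bin they were 9.2% (23 of 250) and 5.6% (14 of 250). In the second lowest bin they were 9.2% (23 of 250, 6.21 to 13.4) and 1.2% (3 of 250, 0.409 to 3.47), so the contrast by width did not fade evenly with fold. In the lowest bin they were 5.02% (12 of 239, 2.90 to 8.57) and 3.77% (9 of 239), a value inside that interval.

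Each naive library was also left out of the choice in turn, to see how often it held a peak. Regions were taken by their peaks in the other 2 naive libraries and 1 burned library, and were paired on fold in those 2 libraries with regions lacking burned peaks. Those with a peak in the library left out are by construction the 318 single-burn regions, so their widths give no further check of the width difference. A peak was present in naive library 1 at 94.6% of 336 such regions against 81.8% of their partners (Wilson intervals 91.7 to 96.6 and 77.4 to 85.6). For naive library 2 the shares were 94.6% and 99.4% (91.7 to 96.6 and 97.9 to 99.8), in the other direction, and for naive library 3 91.4% and 89.9% of 348 (88.0 to 93.9 and 86.3 to 92.7). Across the 3 libraries the presence difference was 3.16 ± 8.91 percentage points (SD, n = 3), within its spread. It was -9.93 points without burned library 3, a setting that takes mostly other regions.

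Summits in the naive libraries were higher at single-burn regions than at naive-only regions of equal mean naive fold. Height is given as summit tags divided by the library's genome background. Its median was 10.5, 26.2 and 17.3 in naive libraries 1, 2 and 3, against 8.67, 21.8 and 14.5 at the paired regions. These are ratios of 1.21, 1.21 and 1.19, or 0.27 ± 0.01 on the log2 scale (SD, n = 3 naive libraries). In tags, the medians were 29, 47 and 31 against 24, 39 and 26. The local background, which at equal fold must move with the tags, was 1.49, 2.34 and 1.77 times the genome background at single-burn regions and 1.30, 1.91 and 1.5 times at their partners. The height ratio was -0.05 on the log2 scale without burned library 3, -0.01 at low local background and 0.17 with lists of equal length. The first of these again describes mostly other regions, with the 315 regions of burned library 3 in the naive-only pool.

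The 3 naive libraries stood in 1 order at most of these regions. Naive library 2 was the highest, naive library 3 the middle and naive library 1 the lowest in relative height at 299 of the 318 regions (94.0%, Wilson interval 90.9 to 96.1). At the paired naive-only regions this order held for 307 of 318 (96.5%). It held for 26 of the 135 regions with peaks in all 6 libraries (19.3%, 13.5 to 26.7) and for 6 of the 28 with 2 burned peaks (21.4%, 10.2 to 39.5). The median ratio of naive library 2 to naive library 1 was 2.43 at single-burn regions, 2.43 at the paired naive-only regions and 1.08 at regions with peaks in all 6 libraries. In this respect the values of single-burn regions lay beside those of naive-only regions and apart from those of regions found in every burned cornea. Regions of 1 library share its depth and its general signal over background, so these shares describe the libraries as well as the regions.

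**Figure D3:**
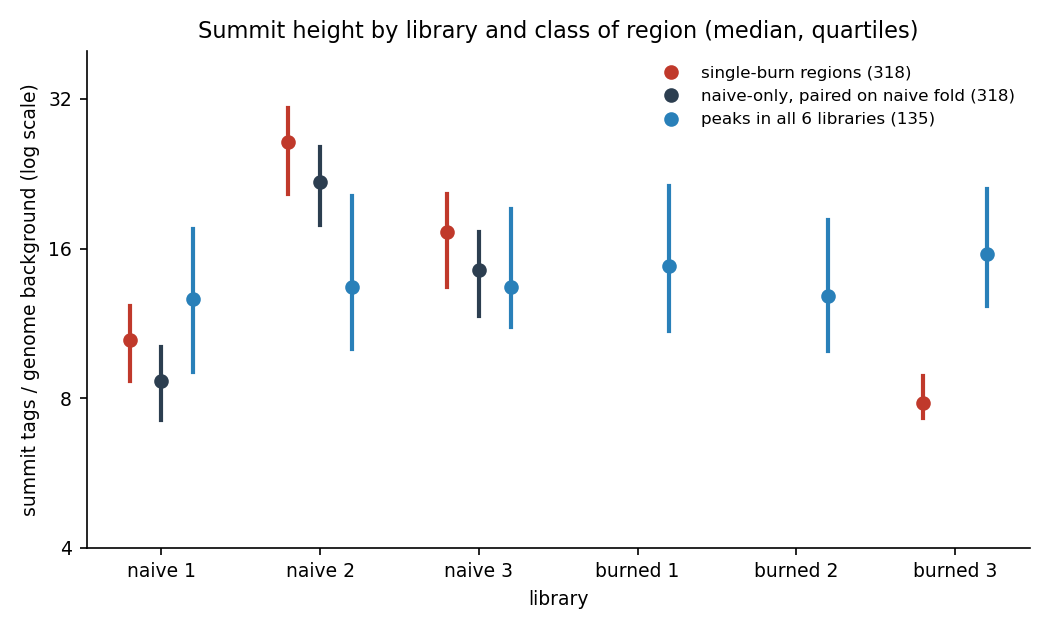
Summit height (tags over genome background, log2-spaced axis) by library at single-burn regions (red; burned 3 holds 315 of 318), paired naive-only regions (dark) and regions with peaks in all 6 libraries (blue). Points are medians and bars quartiles over regions. The red medians are 10.5, 26.2 and 17.3 in naive 1, 2 and 3 and 7.82 in burned 3, whereas the blue medians lie between 12.6 and 15.6 in all 6 libraries.

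Burned library 3 lay below all 3 naive libraries at most of its regions. The burned peaks held 10 to 31 tags over the 318 regions with a median of 15, and the median height in burned library 3 was 7.82 times the genome background. The median ratio of burned library 3 to naive libraries 1, 2 and 3 was 0.753, 0.311 and 0.457, and it was below 1 at 266, 309 and 305 of the 315 regions. It was below all 3 naive libraries at 266 regions (84.4%, Wilson interval 80.0 to 88.0) and above all 3 at 5. At the regions with peaks in all 6 libraries, the same ratios were 1.24, 1.20 and 1.09, and burned library 3 was below all 3 naive libraries at 11 of 135 (8.15%, 4.61 to 14.0). With all 318 regions, the burned peak had a median of 0.476 times the geometric mean of the naive heights, and it was under 1 in 2 of that mean at 181 regions (56.9%). On the log2 scale this median was -1.07, against 0.13 for the 29 regions found without burned library 3, only 3 of which were among the 318. It was -0.01 for the 26 at low local background, 12 of which were not among the 318. Only called peaks enter these ratios, so lower burned signal at other naive regions is not seen.

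Across the 315 regions, the height in burned library 3 had a Spearman correlation of 0.42, 0.38 and 0.39 with naive libraries 1, 2 and 3. Between pairs of naive libraries the correlation was 0.75 to 0.77. At the 135 regions with peaks in all 6 libraries, burned library 3 had correlations of 0.71, 0.75 and 0.83 with the naive libraries. These values are a description across regions that share libraries. Heights in burned library 3 ran from 5.21 to 16.2 at the 315 regions, and the part of this range in the lower correlations was not tested.

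**Figure D4:**
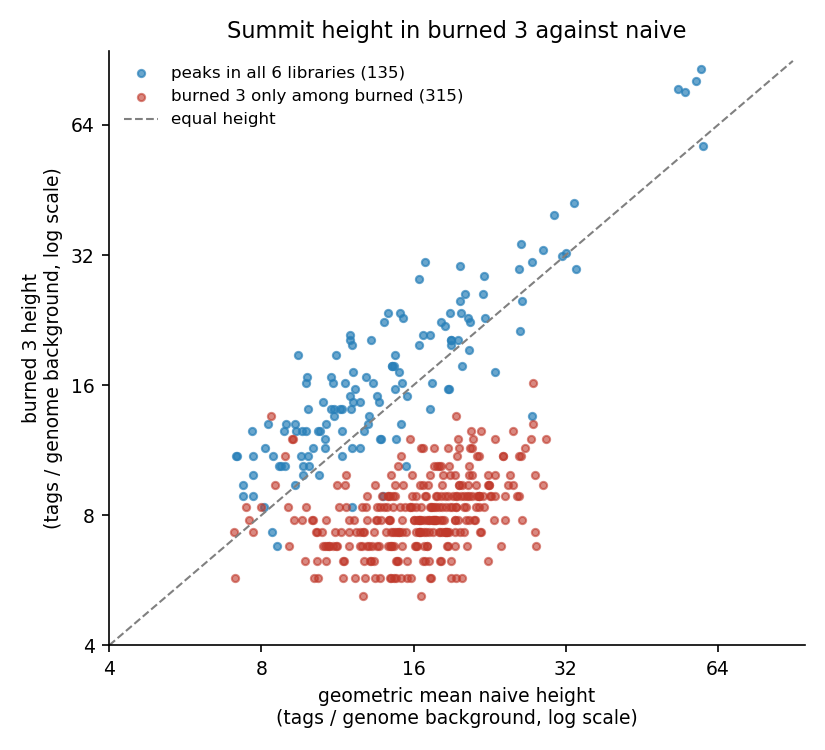
Summit height in burned library 3 against the geometric mean height of the 3 naive libraries (tags over genome background, log axes) at the 315 regions where it was the only burned library with a peak (red) and at the 135 regions with peaks in all 6 libraries (blue). Most red points lie below the dashed line of equal height, while blue points lie around or above it.

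The burned peak was narrower than the naive peaks and lay inside them at most regions. All chromosomal peaks of burned library 3, of which these made up 28.8%, had a median width of 241.5 bp. The burned peak's width had a median of 253.5 bp, with a range of 200 to 599 bp. It was narrower than all 3 naive peaks at 291 regions (91.5%, Wilson interval 87.9 to 94.1). At 45 regions (14.2%) it had 200 bp, the smallest width in every list. The burned peak lay wholly inside the naive library 2 peak at 292 regions (91.8%), and the burned summit lay inside all 3 naive peaks at 298 (93.7%). Peaks join a region only by overlap, and naive library 2 peaks had a median of 642 bp here. Both counts are thus in part set by the rule and the widths. The distance from the burned summit to the mean naive summit had a median of 57.7 bp, and it was at most 100 bp at 242 regions (76.1%). It was 40.5 bp with the stricter limit on q and 19 bp for the 29 regions without burned library 3.

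Naive summits at single-burn regions spanned more bp than at their paired regions, where the peaks were also narrower. The span of the 3 naive summits had a median of 85 bp against 65 bp at the partners and 55 bp at regions with peaks in all 6 libraries. The mean naive peak width had medians of 524, 431 and 349 bp in these sets, in the same order. The span is therefore not read as a trait apart from width. The difference in span of 20 bp from the partners was 6.5 and 7 bp without naive libraries 1 and 3, where the span is that of 2 summits. It was -36 bp without burned library 3, where mostly other regions were compared. Each naive summit lay a median of 48.3, 38.5 and 43 bp from the mean of the other 2, for naive libraries 1, 2 and 3, against 37.5, 29.3 and 31.5 bp at the partners. The burned library 3 summit lay a median of 52.5 to 59.5 bp from the mean of any 2 naive libraries, a little farther than the naive summits from each other. More than 1 peak of a naive library fell in 32 single-burn regions (10.1%, Wilson interval 7.22 to 13.9) and in 19 partners (5.97%, 3.86 to 9.14). The summit lay near the middle of the peak in each naive library, at 46.9% to 49.4% of its width.

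Some of the named regions show the typical pattern. Chromosome 2 at 40649041 to 40649859 had the highest mean naive fold, 10.4 ± 2.63 (SD, n = 3 naive libraries). Tags at its summit numbered 39, 68 and 38 across the naive libraries in order, and 19 in burned library 3, with a burned summit 18.7 bp from the mean naive one. Chromosome 13 at 102259592 to 102259978 followed with 10.3 ± 2.95, from 30, 50 and 32 naive tags and 15 burned tags. All 3 naive libraries were above burned library 3 at both regions.

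Chromosome 3 at 82528757 to 82529355 had a fold of 10.3 ± 0.915, from 43, 57 and 41 naive tags, and 12 burned tags. The region on chromosome 18 at 3816735 to 3817471 had 9.99 ± 1.95 with 48, 78 and 52 naive tags and 13 burned tags. Here the burned summit was 342 bp from the naive mean, so the burned peak stood at the flank of a region of 737 bp. Chromosome 15 at 24225739 to 24226433 had 9.89 ± 0.929 with 38, 50 and 40 naive tags and 17 burned tags. In height relative to background, burned library 3 reached 0.242 to 0.446 times the naive mean at these 5 regions, all under the group median of 0.476.

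The highest folds in burned library 3 included regions with burned heights below and above those of the naive libraries. Chromosome 14 at 104004956 to 104005971 was a broad region of 1016 bp with 53, 86 and 49 naive tags and 23 burned tags, a burned fold of 7.5. Chromosome 16 at 1286308 to 1286621, 314 bp wide, had the highest burned fold, 9.25, from 26 tags against 18, 17 and 17 in naive libraries 1, 2 and 3. On chromosome 18, 52986652 to 52986884 was 233 bp wide and had a burned fold of 7.54 from 21 tags against 23, 17 and 16. At the latter pair, relative height in burned library 3 was above every naive library, by 1.62 and 1.23 times the naive mean.

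Regions where the burned height reached the naive level formed a small and narrow subset. The burned height was at or above the geometric mean of the naive heights at 11 of the 318 regions (3.46%, Wilson interval 1.94 to 6.09). Their mean naive peak width had a median of 248 bp against 527 bp at the other 307 regions, and their mean naive fold 4.73 against 7.39. Besides the pair on chromosomes 16 and 18, the highest ratios were 1.41 on chromosome 14 at 20327837 to 20328332, 1.30 on chromosome 1 at 193839402 to 193839724 and 1.30 on chromosome 12 at 149278604 to 149278915. The chromosome 14 region was the only one whose peak was in burned library 1, with 24 tags there and 32, 16 and 14 in naive libraries 1, 2 and 3.

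Both regions of burned library 2 belonged to the weaker end of the group. Chromosome 15 at 40048133 to 40048431 had 29 burned tags against 34, 20 and 24 naive tags, with a mean naive fold of 3.65 ± 0.375. On chromosome 13, 2872431 to 2872841 had 16 burned tags against 19, 16 and 15, with a mean naive fold of 3.93 ± 0.842. Their relative burned heights were 1.12 and 0.949 times the naive mean. All 3 regions from burned libraries 1 and 2 thus had low naive folds and burned heights close to or above the naive ones.

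At the edge of the rule, the burned peaks with the weakest q-values were on chromosome 17 at 6525620 to 6526378 (-log10 q 1.96, 10 burned tags) and chromosome 4 at 74516256 to 74516902 (2.01, 10 tags). The third was on chromosome 1 at 147245288 to 147246107 (2.30, 13 tags). Their naive summits held 30, 48 and 28 tags, 19, 32 and 30 tags, and 37, 76 and 43 tags. In all, 192 of the 318 burned peaks (60.4%) had a -log10 q under 5, whereas the naive medians at these regions were 11.5, 27.2 and 15.3. Just outside, the naive-only regions closest to a burned peak were on chromosome 9 (start 24524381, end 24524918) and chromosome 13 (start 2227344, end 2228261, and start 42159121, end 42159675), with gaps of 229, 244 and 305 bp. Among regions with 2 burned peaks, the weaker peak was faintest on chromosome 9 at 31139283 to 31139642 (-log10 q 1.86), followed by chromosome 2 at 62167881 to 62168245 (2.88) and chromosome 4 at 4100323 to 4100850 (3.40). Of the 28 such regions, 26 had 1 of the 2 peaks in burned library 3.

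The single-burn regions were spread over all 21 chromosomes. Chromosome 2 held 37, or 16.5% of its 224 regions with all 3 naive peaks (Wilson interval 12.2 to 21.9), and chromosome 1 held 31 of 235 (13.2%, 9.45 to 18.1). The share was lowest on chromosome 9 (9 of 133, 6.77%, 3.6 to 12.4), chromosome 5 (4 of 57, 7.02%, 2.76 to 16.7) and chromosome 12 (15 of 212, 7.08%, 4.33 to 11.3). The interval excluded the overall 12.3% on chromosome 12 alone of the 21 chromosomes. With this many chromosomes and no replicate among burned libraries, that is a description. The share on chromosome 2 was 1.34% without burned library 3, 10.6% without naive library 1 and 7.24% with the stricter limit on q, -log10 q of at least 5.

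**Figure D5:**
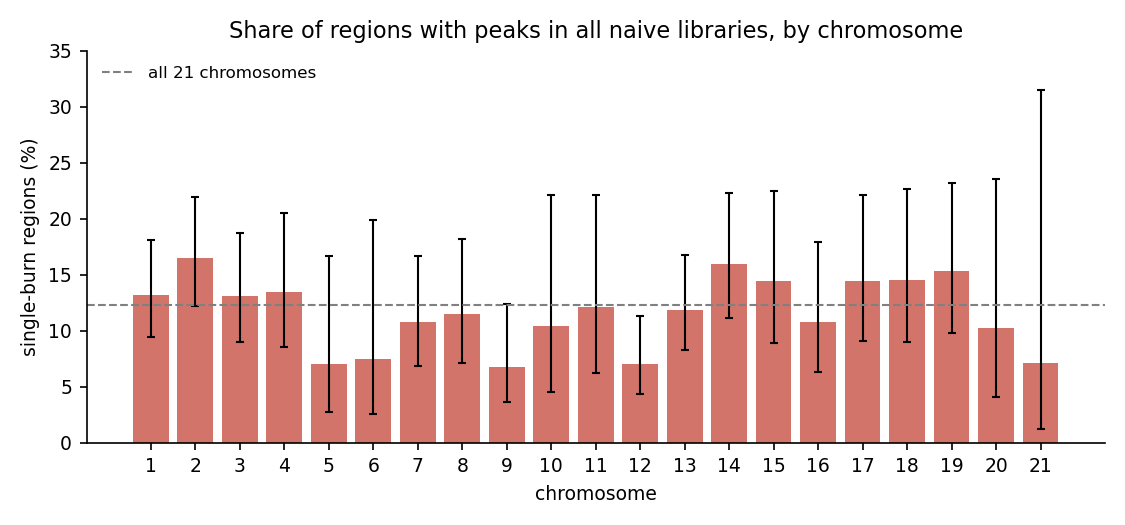
Share of regions with peaks in all 3 naive libraries that had a peak in exactly 1 burned library, by chromosome, with 95% Wilson intervals that cover counting error only. The dashed line is the 12.3% over all 21 chromosomes, and only the interval of chromosome 12 (4.33 to 11.3) lies wholly below it.

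Most windows of 1 Mb with a single-burn region held only 1. There were 318 such regions and 1202 windows with a region of all 3 naive peaks, so these counts alone show no particular spacing. The single-burn regions fell in 285 windows, 255 of which held 1 region and 28 of which held 2. The densest window was on chromosome 19 at 11000001 to 12000000, with 4 of its 7 regions with all naive peaks in the group. Next came chromosome 2 at 124000001 to 125000000 with 3 of 5, and chromosome 1 at 121000001 to 122000000 was the first of the windows with 2. The gap to the nearest other region with all 3 naive peaks had a median of 150444 bp at single-burn regions and 178076 bp at the paired naive-only regions, a log2 ratio of -0.24. Paired by summit height the ratio was 0.22, the other way, so no direction is read from it. In each set 13 regions (4.09%) had such a neighbour within 10 kb.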

How the data were processed

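ATAC-seq libraries of 3 naive and 3 burned corneas were analysed from 1 peak list each. The submitters' processing notes name FastQC, Bowtie2, SAMtools and the build OryCun2.0. Which peak caller was used, how duplicate and mitochondrial reads were treated and whether tags were shifted to the cut site is not given in the sources used here. Each library has a list of its own, deposited by the authors. Per peak they deposited a fold (a ratio of tags to local background), the -log10 p and -log10 q, a summit position, and an integer score made from the -log10 q, which was not used.

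Tags and local background were recovered by solving fold = (tags + 1)/(background + 1) together with the Poisson p-value, within 0.001 of the -log10 p, for 100% of peaks. The lowest background of a list was taken as its genome background, which also served to gauge depth, since the lists hold no read totals. The formula was inferred from the values. In each region and library the peak of highest fold was used. Each single-burn region was paired, without reuse and from the highest fold down, with the naive-only region nearest in log2 mean naive fold (largest distance 0.07). No test was run, since the rule used the contrast; spread is given over libraries. That the libraries came from separate animals is not stated beyond the eyes described. The tag recovery, the classes and the pairing were tested on simulated data.

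The regions and comparisons were chosen with earlier results of these data known. Named regions were the 5 of highest mean naive fold and the 3 of highest burned fold per burned library, the 5 of highest burned over naive height, the 3 of lowest burned -log10 q, 3 regions on either side outside the rule, and the 3 windows with most members. Alternatives were a -log10 q of at least 5, 1 p limit, equal list lengths of 2319 peaks, coverage of at least 50% of a region, regions merged from naive peaks, chromosome X, low local background (under 1.5 times that of the genome), other pairings and leaving out each library. The software was scipy 1.17.1, pandas 2.3.3, numpy 2.4.6 and matplotlib 3.10.9 under Python 3.11.15. Positions count from 1. Gene names were not used, as the reference table is of a different build.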

Additional observations from a re-analysis of the deposited data

How the results depend on the processing

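The number of single-burn regions was 122 at the stricter q limit, 74 at equal list length, 78 with coverage of at least 50% of the region, 26 at low local background, and 29 to 349 on leaving out 1 library, the 29 being without burned library 3. The share in burned library 3 was 96.2% with coverage and 61.5% at low local background, and leaving out any library but burned library 3 itself gave 93.7% to 99.1%. The width difference was 85.0 bp at the stricter q limit, 54.3 bp at equal list length, 36.3 bp with coverage, -39.2 bp at low local background, 98.3 bp with 10 strata of fold, 142 bp unpaired, 53.5 bp paired by height, and -37.7 to 112 bp with 1 library left out. The log2 height ratio in the same order was 0.22, 0.17, 0.23, -0.0068, 0.24 and 0.53 up to the unpaired value, 0.29 when paired on the lowest naive fold, and -0.0484 to 0.33 with 1 library left out. The difference in summit span was 9 bp at equal list length, 3 bp with coverage, -16.5 bp at low local background, 9 bp unpaired, 12 bp paired by height, and -36 to 17 bp with 1 library left out. The log2 gap ratio was 0.31 at the stricter q limit, 0.88 at equal list length, -0.07 with coverage, -0.0542 unpaired, 0.22 paired by height, and -0.39 to 0.15 with 1 library left out. The log2 ratio of burned to naive height (-1.07) was -0.0103 at low local background, and leaving out libraries singly gave -1.38 to 0.13. The summit distance was 40.5 bp at the stricter q limit and at equal list length, 39 bp with coverage, 35.8 bp at low local background, and 19 to 57 bp on leaving out 1 library. The presence difference in the naive library left out of the choice was 12.1 points at equal list length, -1.70 with coverage, and -9.93 to 11.8 with 1 library left out. The chromosome 2 share was 7.24%, 7.10% and 9.52% at the stricter q limit, with coverage and at low local background, and 1.34% to 18.3% on leaving out 1 library. Values without burned library 3 rest on 29 regions, of which 3 were among the 318, those at low local background on 26, of which 14 were, and the gap ratio also turned without naive library 2 (0.11). Without burned library 3, the naive-only pool of 2428 regions also took in the 315 regions of that library. The cause of the other shifts was not tested. The pairing by height was chosen after the data were seen. No paired analysis was possible because the labels do not tie library numbers to animals, and no test was run. Total depth is unknown, and calling limits differ between lists.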

Other observations

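Burned library 3 had a peak at 1077 chromosomal regions, and the 315 single-burn regions were 29.2% of them. A further 355 (33.0%) had no peak in any naive or other burned library, 123 had burned library 3 as the only burned library with peaks in 1 or 2 naive libraries, and 135 (12.5%) had peaks in all 6. The median burned height was 7.82 at the 315 regions, 7.30 at the 355 regions and 15.6 at the 135 regions. The local background in burned library 3 was 1.21, 1.04 and 1.49 times its genome background at these sets, and the peak width 254, 213 and 364 bp.

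Chromosome X, which the rule leaves out, held 3 further regions with a peak in all 3 naive libraries and in exactly 1 burned library, and burned library 3 held the peak at each of them.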
